A study of Mus musculus with 15 samples.

Results

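The cluster histone genes are the genes that encode the replication-dependent histones, and they were taken here as all genes whose symbol starts with Hist and a cluster number. Of the 14091 features in the deposited table, 52 met this rule. By the histone class in their symbols, 5 belonged to the linker class H1, 12 to H2A, 14 to H2B, 10 to H3 and 11 to H4. Hist1h2al, counted here in H2A, is annotated as a pseudogene. By cluster, 47 belonged to Hist1, 4 to Hist2 and 1 to Hist4. After low counts were removed, 51 remained and were tested. Hist1h2ai, an H2A gene with at most 13 counts in any library, was not tested.

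Core histones form the protein spool around which DNA is wrapped, and linker histones bind the DNA where it enters and leaves the spool. Most cluster histone genes are transcribed when DNA is replicated, under control of the coactivator Npat, and they have no introns. Their messages mostly end at a short stem-loop bound by the protein Slbp, in place of a poly(A) tail. In human cells some of the corresponding genes are also known to give polyadenylated messages in cells that have stopped dividing. The libraries were made by depletion of ribosomal RNA, which does not select for a poly(A) tail.

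The cells, cultured from embryos of ICR mice, were fibroblasts (MEF), the cells that make connective tissue. The MEF group carries Ctrl in its titles, and the labels do not say whether it received an empty virus. The other 2 groups had been transduced with retrovirus and were collected 1 week later, per the labels' protocols. MGT denotes Mef2c, Gata4 and Tbx5, transcription factors that together move fibroblasts toward a heart muscle state. MΔGΔT denotes an altered form of the set. What Δ stands for is not defined in the labels, and the title of the series names engineered effector domains in Mef2c and Gata4. Both transduced groups carry iCM in their titles, which the labels do not spell out. Each group held 5 libraries, and the labels do not say whether these came from separate cultures. The p-values therefore measure the spread between these libraries, which may be partly technical.

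Library depth ran from 8.21 to 11.1 mega-counts. No pair of replicates agreed within sampling noise, with a chi-square per degree of freedom of at least 1.61. Pairs with MEF replicate 1 stood apart from the rest at 4.67 to 7.43, against at most 4.04 for all other pairs of replicates. The summed level of 13 fibroblast markers ranged from 57200 to 66100 counts per mega-count (CPM, of the library size adjusted by TMM) in MEF, from 32100 to 33400 in MGT and from 27300 to 29500 in MΔGΔT. The summed level of 13 heart muscle markers ranged from 8.39 to 9.15 CPM, from 1450 to 1630 and from 12200 to 13600 in the same order. By the test used below, 12 fibroblast markers were called lower and 1 higher in MGT than in MEF (30.3% and 30.9% of all features). In MΔGΔT 10 were lower and 3 higher than in MEF (36.1% and 36.2%), and 7 lower and 4 higher than in MGT (27.8% and 30.4%). Macrophage markers (14 tested) summed to 2560 to 3370 CPM in MEF, 194 to 353 in MGT and 240 to 350 in MΔGΔT, so the labelled fibroblasts held more RNA of macrophage markers than the transduced groups did. Its part in the histone results was not tested. In such bulk samples, fewer cells of a type and less RNA per cell cannot be told apart.

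The stem-loop that marks these messages was found in the annotated transcript of 35 of the 52 genes (67.3%), against 0.692% of 58797 protein-coding transcripts of GENCODE M21. It was searched on the sense strand by its consensus, a stem of 6 base pairs around a loop of 4 bases. The 35 genes held 8 distinct forms, of which the commonest was found in 18 genes. One example of each of 4 forms is shown, for genes that the results below turn on, with the 2 arms of the stem in capitals and T for U.
Hist1h1c: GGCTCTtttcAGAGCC
Hist1h2bk: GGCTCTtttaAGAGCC
Hist1h4j: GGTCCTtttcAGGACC
Hist4h4: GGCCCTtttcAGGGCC
The first of these forms was the commonest. In 16 of the 35 genes the annotated transcript ended under 100 bases past the stem-loop, and in 19 it ran further. The other 17 genes had none in the annotated transcript. For some of these the annotated transcript is short, as with the 312 bases of Hist1h4k on the minus strand. It ends at 21750194 in GENCODE and at 21750145 in RefSeq. The lack of a match there does not show that the gene has no stem-loop.

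A promoter window of 250 bases before to 50 after the start was available from RefSeq (GRCm38.p6) for 46 of the genes, matched through older symbols. The motif TATAAA, read on both strands, stood in 63.0% of these genes against 13.6% of the 32851 windows in the table. A gene was counted where any of its windows held the motif, and Hist1h2be had a second window. CCAAT stood in 84.8% against 37.4%. The octamer ATTTGCAT, known from H2B promoters, stood in 23.9% against 1.74%. It was found for 5 of 11 H2A genes, for 6 of 12 H2B genes and in none of the H1, H3 and H4 windows. Windows of genes that lie head to head overlap, as those of Hist1h2ae and Hist1h2bg and of Hist1h2ah and Hist1h2bk do. A match there, such as the octamer, counts for both genes, so the windows are not independent for any of the motifs. AAACACA, an element known from H1 promoters, stood in 15.2% of the genes against 7.18% of all windows, and in 4 of 5 H1 windows. CCAAT was found in 3 of 10 H4 windows and in every window of the other classes. TATAAA can share letters with the octamer or with AAACACA where they adjoin. The windows of 4 genes are printed, 1 each of H1, H2B, H4 and H3, with matches on either strand in capitals. They are chr13:23738557-23738856 (plus strand), chr13:22035571-22035870 (plus), chr13:21734784-21735083 (plus) and chr3:96239078-96239377 (minus), in this order.
Hist1h1c: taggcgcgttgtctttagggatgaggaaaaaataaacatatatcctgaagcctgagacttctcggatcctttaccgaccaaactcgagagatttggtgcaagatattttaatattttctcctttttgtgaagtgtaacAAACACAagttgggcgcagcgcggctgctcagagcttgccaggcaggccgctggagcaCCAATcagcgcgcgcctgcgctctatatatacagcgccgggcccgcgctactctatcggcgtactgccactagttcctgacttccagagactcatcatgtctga
Hist1h2bk: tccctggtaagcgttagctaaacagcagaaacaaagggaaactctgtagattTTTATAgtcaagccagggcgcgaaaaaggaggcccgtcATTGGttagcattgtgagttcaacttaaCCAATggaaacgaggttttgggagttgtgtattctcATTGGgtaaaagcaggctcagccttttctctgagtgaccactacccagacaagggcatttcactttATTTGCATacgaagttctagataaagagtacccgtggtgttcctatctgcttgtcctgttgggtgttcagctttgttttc
Hist1h4j: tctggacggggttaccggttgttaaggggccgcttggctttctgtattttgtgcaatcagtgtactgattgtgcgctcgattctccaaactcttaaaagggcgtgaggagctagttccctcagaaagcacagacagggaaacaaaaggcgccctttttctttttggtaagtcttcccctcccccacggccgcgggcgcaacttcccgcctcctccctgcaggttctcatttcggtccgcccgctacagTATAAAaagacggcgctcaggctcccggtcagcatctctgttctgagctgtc
Hist2h3c2: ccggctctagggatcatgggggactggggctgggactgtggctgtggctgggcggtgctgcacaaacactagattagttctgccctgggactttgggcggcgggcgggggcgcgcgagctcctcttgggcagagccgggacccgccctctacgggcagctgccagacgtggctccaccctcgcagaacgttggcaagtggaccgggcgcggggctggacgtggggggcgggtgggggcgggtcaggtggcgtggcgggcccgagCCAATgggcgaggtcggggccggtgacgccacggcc
Hist1h1c, the most abundantly counted gene, held CCAAT and the H1 element. Hist1h2bk held CCAAT and the octamer. It held TATAAA on the opposite strand only, in bases that its window shares with that of Hist1h2ah. The H4 gene Hist1h4j held TATAAA and the H3 gene Hist2h3c2 held CCAAT alone of the 4.

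Per length, on the scale of RPKM (reads per kilobase of gene per mega-read, as deposited), the highest means over all libraries belonged to Hist1h4n (mean 97.7), Hist1h1c (77.1), Hist1h2al (73.4), Hist1h4d (69.2) and Hist1h1e (65.8). In MEF the first 3 of these ranged from 88.5 to 136, from 66.4 to 99.8 and from 60.4 to 95.8 RPKM, so that neighbours in this order overlapped. Hist1h2al is annotated as a processed pseudogene and lies apart from the other Hist1 genes. At the lower end stood Hist1h2be (3.44), Hist4h4 (3.52), Hist1h2ba (3.80), known as a testis form of H2B, and Hist2h2be (0.635). Many members are near-identical in sequence. The share of 50-base stretches of a transcript found in no other gene's transcript ranged from 6.0% to 100%, and it was under 50% in 23 of the 52. Whether reads shared by such genes were counted, and for which gene, is not given in the sources used here. In the annotation 14 members overlap another gene, and the use of strand in counting is not known. Levels and changes of single members with a low unique share are therefore uncertain.

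As a whole, the cluster histone genes were close between MEF and MGT and lower in MΔGΔT. Their counts summed to 677, 930, 917, 901 and 859 CPM in MEF replicates 1 to 5. The sums were 938, 901, 821, 881 and 967 CPM in MGT and 559, 539, 542, 514 and 551 CPM in MΔGΔT. Every MΔGΔT library lay below every library of the other groups, while MEF and MGT overlapped, with MEF replicate 1 lowest among them. The means were 857 ± 104, 901 ± 55.7 and 541 ± 17.1 CPM (SD, n = 5). The MΔGΔT mean was 0.631 times that of MEF and 0.600 times that of MGT in CPM, against 0.473 and 0.420 times for summed RPKM. Without MEF replicate 1, the MEF mean was 902 ± 30.9 CPM (SD of the other 4) and the ratio to it 0.600. As a share of all counts the genes made up 0.068% to 0.0934% in MEF, 0.0871% to 0.102% in MGT and 0.0484% to 0.0526% in MΔGΔT.

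By class and in CPM, the MΔGΔT mean was lowest relative to MEF for H4 (0.571 times), H2A (0.574) and H3 (0.576), followed by H1 (0.662) and H2B (0.731). That order did not hold for summed RPKM, where the ratios were 0.404 for H3, 0.477 for H2B, 0.478 for H2A, 0.487 for H4 and 0.514 for H1. Relative to MGT the ratios in CPM were 0.465 for H3, 0.504 for H2A, 0.516 for H4, 0.642 for H2B and 0.696 for H1. In each of the classes no MΔGΔT library reached a library of MEF or MGT. The MGT mean stood at 1.24 times MEF for H3, 1.14 for H2A and H2B, 1.11 for H4 and 0.950 for H1. Without MEF replicate 1 these ratios were 1.19, 1.07, 1.12, 1.05 and 0.896.

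**Figure D1:**
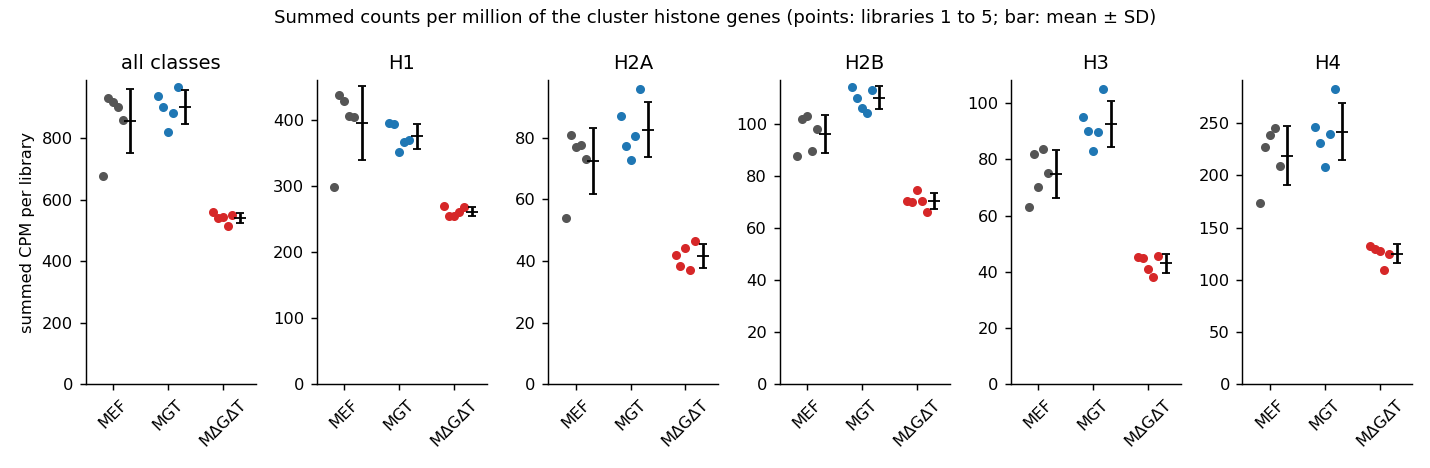
Summed CPM of the cluster histone genes in each library (points, replicates 1 to 5 from left to right) with the mean and SD of each group (n = 5), for all classes and for each class, on axes that start at 0. The 5 MΔGΔT libraries lie between 514 and 559 over all classes, below all libraries of MEF (677 to 930) and MGT (821 to 967), and MEF replicate 1 lies lowest in MEF in every panel.

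MEF replicate 1 was the lowest MEF library for 37 of the 51 tested genes. In the same library the summed level of 35 S-phase genes was 952 CPM, within the 940 to 967 of the other MEF libraries, and that of 24 mitosis genes was 706, at the top of the 658 to 706 of the group. Its macrophage markers summed to 2560 CPM, the lowest of the 5 MEF libraries. The part of this library's make-up in its histone level was not tested. Results against MEF are given with and without it where they differ.

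Between MGT and MEF, 18 of the 51 tested genes were higher, 2 were lower and 31 did not pass the test (edgeR's quasi-likelihood test, Benjamini-Hochberg adjusted p under 0.05 over 13328 features). Of all features, 61.2% were called in either direction. The share higher was 35.3%, close to the 30.9% of all features, and the share lower was 3.92% against 30.3%. The median log2 fold change was 0.23, beside 0.00 over all features. Libraries of the 2 groups did not overlap for 6 genes, all higher in MGT, where 23.0% of all features were higher and 22.8% lower without overlap. Without MEF replicate 1, 14 genes were higher and 4 lower. Of the 18, 13 stayed called, and Hist1h2ab, Hist1h2ag, Hist1h2ap, Hist1h2bf and Hist1h4a did not. With library totals in place of TMM, 25 were higher and 0 lower (1 lower at an unadjusted p under 0.05, against 2 lower by DESeq2), and all features shifted by 0.08, with 61.3% of called features higher against 50.5%.

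Between MΔGΔT and MEF, 45 of the 51 genes were lower, 3 were higher and 3 did not pass the test. Of all features, 72.3% were called in either direction. The share lower was 88.2% against 36.1% of all features, and the share higher 5.88% against 36.2%. The median log2 fold change was -0.98, beside -0.01 over all features, and it ranged from -1.79 (Hist1h3a) to 1.51 (Hist2h3c2). Libraries did not overlap for 30 genes lower in MΔGΔT (29% of all features) and for 2 higher (29.4%). Without MEF replicate 1 the counts were 48 lower and 3 higher. The genes with at least 50% unique sequence held 24 lower and 2 higher of 29, and the others 21 lower and 1 higher of 22.

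Between MΔGΔT and MGT, 46 genes were lower, 2 were higher and 3 did not pass the test. Of all features, 58.2% were called in either direction. The share lower was 90.2% against 27.8% of all features, and the share higher 3.92% against 30.4%. The median was -1.21, beside 0.01. Groups did not overlap for 41 genes lower in MΔGΔT (20.8% of all features) and for 1 higher (24.5%). The comparisons share groups of libraries, so their counts are not independent of each other. With library totals, 47 were lower and 0 higher (1 at an unadjusted p under 0.05, against 2 higher by DESeq2), while the median of all features shifted by -0.17 and 28.2% of called features were higher against 52.3%.

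**Figure D2:**
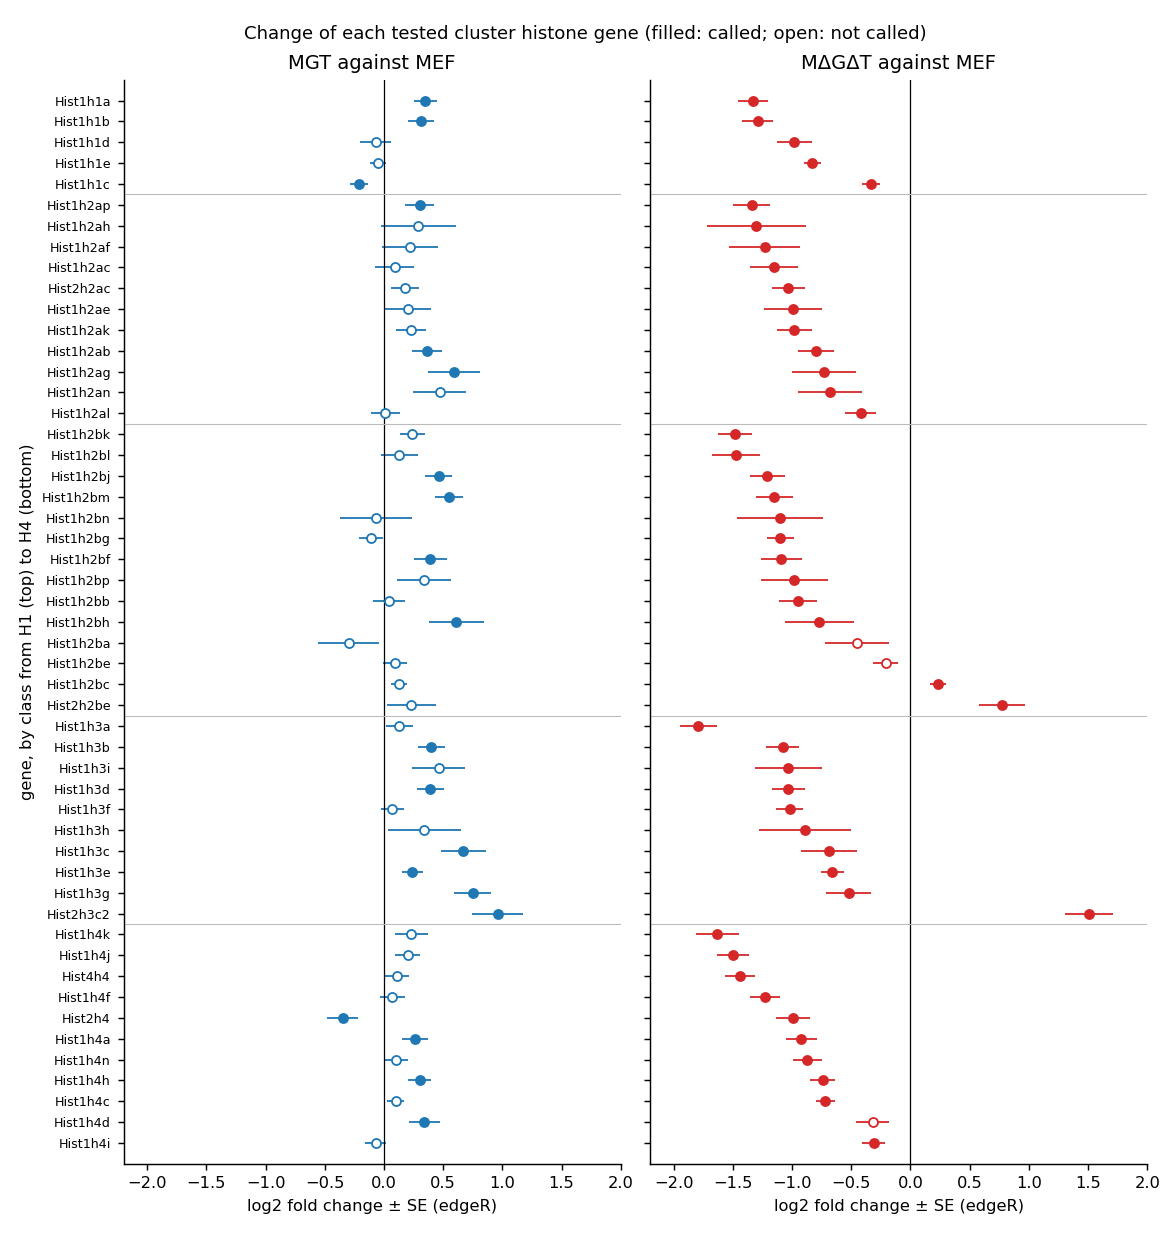
Log2 fold change with its SE (edgeR, horizontal axis) of each of the 51 tested cluster histone genes, in MGT and in MΔGΔT against the same 5 MEF libraries, by class from H1 at the top to H4 at the bottom and ordered within a class by the change in MΔGΔT. Filled points passed the test: 18 higher and 2 lower in MGT, 3 higher and 45 lower in MΔGΔT. By RPKM 1 was higher and 50 lower in MΔGΔT.

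All 5 linker histone genes were lower in MΔGΔT than in MEF (as were 36.1% of all features), and they differed in how far. Hist1h1a (chr13:23763666-23764406, plus strand), encoding H1.1, stood at 14.2, 23.8, 24.9, 23.3 and 23.6 CPM in MEF replicates 1 to 5. It stood at 26.8, 29.3, 25.5, 27.4 and 30.5 CPM in MGT and at 9.44, 8.17, 7.83, 9.20 and 8.94 CPM in MΔGΔT. The 3 groups did not overlap, with MGT highest and MΔGΔT lowest. Its log2 fold change was 0.35 ± 0.098 (SE) in MGT (adjusted p = 0.00332) and -1.33 ± 0.123 in MΔGΔT (adjusted p = 3.02e-10) against MEF, by edgeR's quasi-likelihood test as for every adjusted p below. Hist1h1b, encoding H1.5, had means of 31.4 ± 3.95, 39.1 ± 3.86 and 12.9 ± 3.05 CPM (SD, n = 5) in MEF, MGT and MΔGΔT. It rose by 0.31 in MGT (adjusted p = 0.0182) and fell by 1.29 in MΔGΔT (adjusted p = 7.94e-08). Hist1h1d, encoding H1.3, and Hist1h1e, encoding H1.4, did not pass the test in MGT, with log2 fold changes of -0.07 ± 0.133 and -0.05 ± 0.0664. They fell by 0.98 and 0.83 in MΔGΔT (adjusted p = 4.03e-05 and 3.1e-10). Without MEF replicate 1, both were also called lower in MGT. Hist1h1e overlaps Hist1h2be in the annotation, so reads of this pair cannot be told apart with certainty.

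Hist1h1c (chr13:23738808-23740367, plus strand), encoding H1.2, held the most counts of all the members. It stood at 162, 237, 228, 217 and 227 CPM in MEF replicates 1 to 5. In MGT it stood at 190, 192, 180, 182 and 185 CPM, and in MΔGΔT at 173, 166, 168, 169 and 175 CPM. MEF replicate 1 was the lowest library of all, and apart from it every MEF library lay above every transduced one. The gene fell by 0.33 ± 0.0759 in MΔGΔT (adjusted p = 0.0011), the smallest fall among the linker genes, and its difference from MGT did not pass the test (-0.12 ± 0.0757, adjusted p = 0.177), although the MΔGΔT libraries all lay below those of MGT. That difference was called without MEF replicate 1 (-0.12, adjusted p = 0.0017), with only the 2 groups fitted (-0.14, adjusted p = 0.000202), with library totals (-0.30, adjusted p = 0.00301) and with RPKM. Between MΔGΔT and MGT, however, all features shifted by -0.17 with library totals and by -0.25 or -0.22 with the RPKM fits. The fall in MGT was -0.21 ± 0.075 (adjusted p = 0.0277). It was lost with library totals (adjusted p = 0.153), with RPKM and when only the 2 groups were fitted (0.0581), and also without any one of MEF replicates 2 to 5 or MGT replicates 3 and 4. It was -0.29 (adjusted p = 2.05e-09) without MEF replicate 1. Of the linker H1 counts, Hist1h1c made up 53.3% to 56.2% in MEF, 48.1% to 51.1% in MGT and 64.2% to 66.2% in MΔGΔT. These ranges did not overlap, and MEF replicate 1 lay inside that of MEF with 54.3%.

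All 11 tested H2A genes fell in MΔGΔT against both other groups, where 36.1% (MEF) and 27.8% (MGT) of all features fell. Of the 11, 3 (Hist1h2ab, Hist1h2ag and Hist1h2ap) were called higher in MGT than in MEF. Those 3 made 27.3% of the class, near the 30.9% of all features, and none of the 3 stayed called without MEF replicate 1. Hist1h2ap (chr13:21833026-21833507, minus strand) had the largest fall among them, at -1.34 ± 0.158 (adjusted p = 1.21e-09). It stood at 5.56 to 9.26 CPM in MEF, 9.11 to 11.8 in MGT and 2.44 to 4.69 in MΔGΔT, and its unique share was 6.9%. Hist1h2ak fell by 0.98 (adjusted p = 7.08e-07), from 9.96 ± 1.48 to 5.05 ± 0.995 CPM (SD, n = 5). Hist1h2al changed least. It stood at 19.9, 27.7, 24.0, 27.1 and 21.1 CPM in MEF and 16, 16.3, 21.1, 17.5 and 18.5 CPM in MΔGΔT, with groups that overlapped, and its fall was 0.42 ± 0.13 (adjusted p = 0.00775).

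Among the 14 H2B genes, 10 fell and 2 rose in MΔGΔT against MEF, where 36.1% of all features fell and 36.2% rose. In MGT 4 were called higher (28.6%, against 30.9% of all features), of which Hist1h2bf lost the call and Hist1h2bk gained it without MEF replicate 1. Hist1h2bk (chr13:22035870-22036345, plus strand) stood at 9.0, 8.05, 6.72, 6.52 and 7.70 CPM in MEF replicates 1 to 5. It stood at 9.58, 9.64, 7.87, 8.59 and 9.38 CPM in MGT and at 2.78, 2.82, 2.37, 2.43 and 3.27 CPM in MΔGΔT. All MΔGΔT libraries lay under those of the other groups, which overlapped, and here MEF replicate 1 was the highest of its group. The log2 fold change in MΔGΔT was -1.48 ± 0.142 (adjusted p = 4.5e-12) against MEF and -1.72 ± 0.134 (adjusted p = 3.6e-14) against MGT. Hist1h2bg fell from 12.4 ± 1.17 to 5.80 ± 1.1 CPM (log2 fold change of -1.1, adjusted p = 5.4e-11). Hist1h2bm rose in MGT by 0.55 ± 0.12 (adjusted p = 0.000133) with no overlap between the 5.26 to 7.84 CPM of MEF and the 8.68 to 11.3 CPM of MGT. In MΔGΔT, at 2.16 to 4.33 CPM, it fell by 1.15 (adjusted p = 2.36e-08). With all libraries the testis form Hist1h2ba did not pass the test in any comparison, at means of 1.79, 1.45 and 1.30 CPM. Without MEF replicate 1 it was called lower in MΔGΔT than in MEF, as was Hist1h2be.

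Among the 10 H3 genes, 9 fell and 1 rose in MΔGΔT against MEF, where 36.1% of all features fell and 36.2% rose. In MGT 6 rose (60.0%, against 30.9% of all features). Hist1h3a (chr13:23761853-23762386, minus strand) had the largest fall of all members. It stood at 7.89, 10.6, 7.50, 10.6 and 8.15 CPM in MEF, 8.90, 9.45, 9.37, 11 and 10.5 CPM in MGT, and 3.22, 2.42, 3.09, 1.72 and 2.51 CPM in MΔGΔT. MEF and MGT overlapped and MΔGΔT lay below both. The log2 fold change in MΔGΔT was -1.79 ± 0.153 (adjusted p = 1.87e-13) against MEF and -1.92 ± 0.146 (adjusted p = 1.79e-14) against MGT. Hist1h3g and Hist1h3d rose in MGT without overlap, by 0.75 ± 0.157 (adjusted p = 7.37e-05) and 0.39 ± 0.113 (adjusted p = 0.00261), and fell in MΔGΔT by 0.52 and 1.03. Hist1h3e stood at 24.5 ± 2.95, 29.1 ± 3.5 and 15.5 ± 2.17 CPM (SD, n = 5) and fell by 0.66 (adjusted p = 3.51e-07). Hist1h3h and Hist1h3i were thinly counted, at means of 1.08 and 2.22 CPM in MEF, and they fell by 0.89 (adjusted p = 0.0381) and 1.03 (adjusted p = 0.00149).

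Among the 11 H4 genes, 10 fell in MΔGΔT against MEF (36.1% of all features) and all 11 fell against MGT (27.8%). In MGT 3 were called higher than in MEF (27.3%, against 30.9% of all features), of which Hist1h4a lost the call without MEF replicate 1. Hist1h4k and Hist1h4j had the largest falls, at -1.63 ± 0.183 (adjusted p = 4.7e-10) and -1.50 ± 0.136 (adjusted p = 1.02e-12). Hist1h4j (chr13:21735064-21735837, plus strand) stood at 9.10, 8.92, 10.8, 12.4 and 9.93 CPM in MEF and 4.44, 3.83, 3.4, 2.73 and 3.6 CPM in MΔGΔT, with no overlap. Hist1h4h stood at 35.6 ± 4.91, 43.9 ± 6.59 and 21.3 ± 1.33 CPM in MEF, MGT and MΔGΔT. It rose by 0.30 in MGT (adjusted p = 0.0097) and fell by 0.74 in MΔGΔT (adjusted p = 3.86e-06). Hist1h4n, the highest by mean deposited RPKM though not by counts, fell by 0.87 (adjusted p = 3.91e-08), from 12.7 ± 2.18 to 6.96 ± 1.21 CPM. Its unique share was 14.4%. Hist1h4d rose by 0.34 in MGT (adjusted p = 0.0345). In MΔGΔT it stood at 22.7 to 29.9 CPM against 24.7 to 40.3 in MEF, which did not pass the test (-0.32 ± 0.141, adjusted p = 0.0528) unless MEF replicate 1 was left out. Hist2h4 on chromosome 3 fell in MGT by 0.35 ± 0.129 (adjusted p = 0.0265), from 24.4 ± 5.30 to 19.1 ± 2.69 CPM. That fall was lost with library totals (adjusted p = 0.073), with RPKM and when only the 2 groups were fitted (0.0615), and also without any one of MEF replicates 2 and 4 or MGT replicates 2 and 3. Without MEF replicate 1 it was -0.46 (adjusted p = 5.48e-05). In MΔGΔT Hist2h4 fell by 0.99 (adjusted p = 5.55e-06).

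Hist1h2bc, Hist2h2be and Hist2h3c2 were called higher in MΔGΔT than in MEF. Hist1h2bc (chr13:23684199-23692908, plus strand) is an H2B gene whose annotated transcript of 1156 bases is spliced and holds no stem-loop. It stood at 25.8, 27.6, 26.3, 24.8 and 29.1 CPM in MEF replicates 1 to 5 and at 28.7, 31.4, 30.2, 26.6 and 29.7 CPM in MGT. In MΔGΔT it stood at 29.7, 29.8, 36.3, 31.7 and 29.6 CPM. The lowest MΔGΔT library lay just above the highest MEF library. The log2 fold change was 0.23 ± 0.0677 (adjusted p = 0.0025), and 0.14 with library totals (adjusted p = 0.0689). Its share of the H2B counts was 25.5% to 29.7% in MEF, 25.1% to 28.7% in MGT and 42% to 48.7% in MΔGΔT.

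Hist2h2be (chr3:96221119-96223738, plus strand), an H2B gene of the Hist2 cluster, has an annotated transcript of 2620 bases with no stem-loop match and only unique sequence. It stood at 2.43, 1.25, 2.80, 1.81 and 2.46 CPM in MEF, 2.97, 2.31, 2.56, 2.38 and 2.24 CPM in MGT, and 3.33, 4.24, 4.02, 3.94 and 2.62 CPM in MΔGΔT. Of the MΔGΔT libraries, 4 lay above all libraries of the other groups and replicate 5 lay among them. The log2 fold change was 0.77 ± 0.195 against MEF (adjusted p = 0.000625) and 0.54 ± 0.182 against MGT (adjusted p = 0.0109). The second was lost with library totals (0.37, adjusted p = 0.0765) and on the RPKM scale. Its share of the H2B counts was 1.22% to 2.77%, 1.98% to 2.59% and 3.96% to 6.05% in MEF, MGT and MΔGΔT.

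Hist2h3c2 (chr3:96238108-96239127, minus strand), an H3 gene with a stem-loop 377 bases before the end of its annotated transcript, had the largest rise. It was counted 20, 19, 7, 14 and 11 times in MEF replicates 1 to 5, or 2.02, 1.82, 0.784, 1.69 and 1.23 CPM. It stood at 3.90, 2.89, 2.39, 3.23 and 2.35 CPM in MGT and at 4.67, 4.14, 4.43, 4.65 and 3.92 CPM in MΔGΔT. In CPM the MEF libraries lay below all others, and MGT and MΔGΔT were parted only by 3.90 against 3.92. Before scaling, the counts of these 2 groups overlapped, at 23 to 46 in MGT and 36 to 46 in MΔGΔT. The log2 fold change was 0.96 ± 0.213 in MGT (adjusted p = 0.000164) and 1.51 ± 0.202 in MΔGΔT (adjusted p = 1.9e-08) against MEF, and 0.55 ± 0.17 between the last 2 groups (adjusted p = 0.00543). With library totals the last of these was 0.38 and no longer called (adjusted p = 0.0504). Only 36.5% of its transcript was unique.

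**Figure D3:**
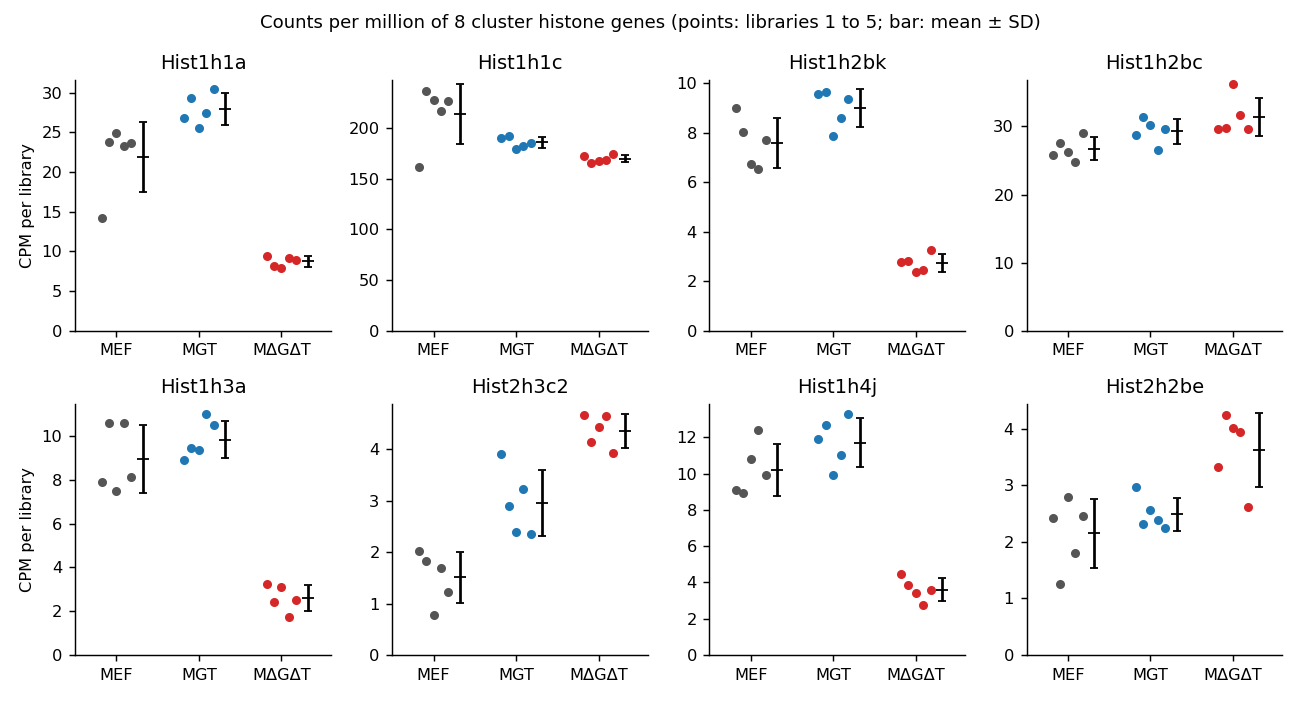
CPM in each library (points, replicates 1 to 5 from left to right) with the mean and SD of each group (n = 5) for 8 of the genes, on axes that start at 0. Hist1h1a, Hist1h2bk, Hist1h3a and Hist1h4j are lowest in all 5 MΔGΔT libraries, Hist1h1c differs little between MGT and MΔGΔT, and Hist1h2bc, Hist2h3c2 and Hist2h2be are highest on average in MΔGΔT by counts, an order that RPKM turned for Hist1h2bc and Hist2h3c2.

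On the scale of the deposited RPKM the direction of 2 of these rises turned. The RPKM values of Hist2h3c2 were 17.2, 15.2, 16.2, 19.2 and 13 in MEF replicates 1 to 5. They were 23.7, 20.6, 18.7, 19.7 and 22.1 in MGT and 10.8, 9.92, 12.2, 9.78 and 12.4 in MΔGΔT. MΔGΔT was thus the lowest group by RPKM and the highest by counts. With limma on log2(RPKM + 1) the difference was -0.51 ± 0.088 in MΔGΔT (adjusted p = 3.56e-05) and 0.36 in MGT (adjusted p = 0.00164). Hist1h2bc was at -0.18 ± 0.0657 (adjusted p = 0.0195) on that scale, where all features shifted by -0.21, so that it stood close to the shift. Hist2h2be stayed higher, at 0.20 (adjusted p = 0.00862). By RPKM 50 of the 51 genes were called lower in MΔGΔT than in MEF and 1 higher, while 29.2% of all called features were higher against 50% by counts.

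The counts and the RPKM of a gene normally differ by a factor that is the same in every library once depth is allowed for. The spread (SD over 15 libraries) of the log2 ratio of RPKM to count, after this, had a median of 0.00 over 7691 well-counted genes. Over the 51 tested histone genes its median was 0.12, and it ranged from 0.00 to 0.88. It was largest for Hist2h3c2, and it was 0.52 for Hist1h3h, which had a mean count of 10 and a mean RPKM of 48.9. It was 0.00 for Hist1h1a and Hist2h4, whose transcripts are 100% and 99.0% unique. The spread did not follow the unique share throughout, at 0.24 for Hist1h2bh (81.2% unique) and 0.06 for Hist1h3e (26.6%). The part of shared sequence in it was not tested, and which reads each scale holds is not given in the sources used here.

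**Figure D4:**
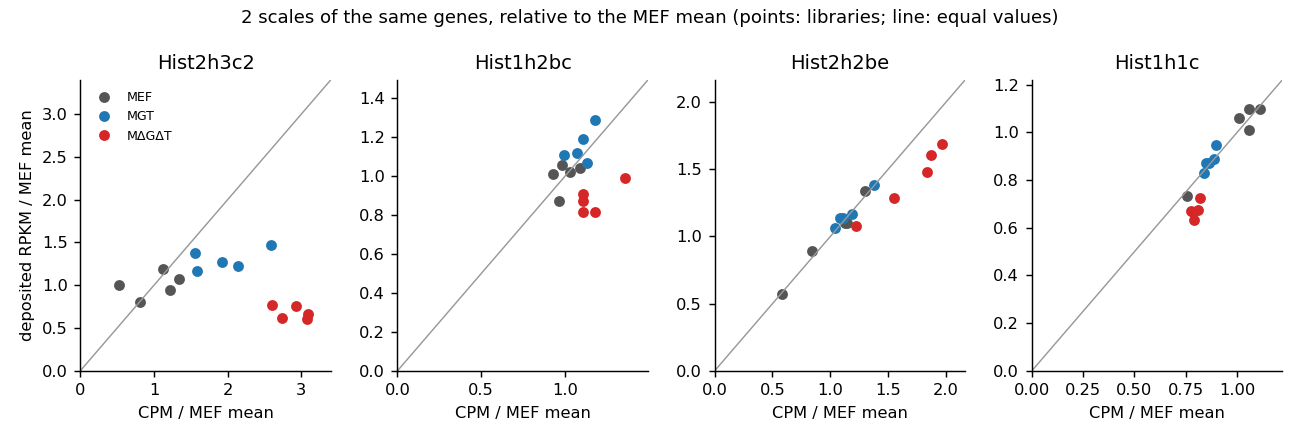
Deposited RPKM (vertical axis) against CPM (horizontal axis), both divided by the MEF mean of the gene, in each of the 15 libraries (points, coloured by group), for 4 genes; the line marks equal values. For Hist2h3c2 the MΔGΔT libraries lie at 2.6 to 3.09 times the MEF mean by counts and at 0.605 to 0.764 times by RPKM, while for Hist2h2be and Hist1h1c the points stay near the line.

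The genes were also set apart by the end of their annotated transcript. The share of all features lower in MΔGΔT was 36.1% against MEF and 27.8% against MGT, and 36.2% were higher than in MEF. In MGT 30.9% of all features were higher than in MEF and 30.3% lower. All 16 whose transcript ended near the stem-loop were lower in MΔGΔT than in MEF and in MGT, with median log2 fold changes of -1.06 and -1.34, and 10 of the 16 were higher in MGT than in MEF (median 0.33). Of the 19 whose transcript ran on past it, 16 were lower and 1 higher in MΔGΔT than in MEF (median -0.92). In MGT 6 of them were higher (31.6%, near the share of all features) and 2 lower (median 0.10). Of the 16 tested with no stem-loop in the transcript, 13 were lower and 2 higher in MΔGΔT (median -1.0), and 2 were higher in MGT (median 0.23). The 3 genes called higher in MΔGΔT, the 3 that were not called, which are Hist1h2ba, Hist1h2be and Hist1h4d, and the least changed linker gene Hist1h1c all fell outside the first of these groups. The 3 not called were all called lower in MΔGΔT than in MEF once MEF replicate 1 was left out. The group without a stem-loop includes genes whose annotated transcript stops short of the RefSeq end, such as Hist1h4k, so the grouping partly follows the annotation. The difference between the groups was not tested.

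By position, 19 genes lay between 21715763 and 22043676 on chromosome 13 and 27 between 23531050 and 23934156 (GENCODE M21, GRCm38). All 18 tested genes of the first stretch fell in MΔGΔT against MEF (36.1% of all features fell and 36.2% rose), with a median of -1.12. In the second, 23 fell and 1 rose, with a median of -0.92. Of the 4 genes on chromosome 3, between 96220361 and 96263311, 2 fell and 2 rose. Hist4h4 (chr6:136801553-136804415, minus strand), an H4 gene alone on its chromosome, fell by 1.44 ± 0.125 (adjusted p = 1.84e-11), from 15.5 to 24.2 CPM in MEF to 5.36 to 8.78 in MΔGΔT. Among other genes inside the stretches, Zfp184 and Hfe alone were tested. Zfp184 in the first fell by 0.67 (adjusted p = 0.00192) and the iron regulator Hfe in the second fell by 1.90 (adjusted p = 3.62e-18). In MGT against MEF, Zfp184 did not pass the test (0.03), while Hfe was already called lower (-1.56). Both were called lower in MΔGΔT than in MGT, at -0.7 for Zfp184 and -0.34 for Hfe.

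By promoter letters on either strand, 27 of 29 tested genes with TATAAA in the window were lower in MΔGΔT than in MEF and 0 higher (median -1.03). Without it 14 of 16 were lower and 1 higher (median -0.74), beside 36.1% lower and 36.2% higher of all features. A TATAAA on the opposite strand, as for Hist1h2bk, can belong to the neighbouring gene. With the octamer, 9 of 11 were lower (median -1.03), and without it 32 of 34 (median -0.98). The 7 without CCAAT, all H4 genes, were lower (median -1.23), as were 34 of 38 with it (median -0.98). Some windows of neighbouring genes overlap, so the genes are not independent in these splits, and the differences were not tested.

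Other genes of the histone pathway were read from lists. In MΔGΔT against MEF, 36.1% of all features were lower and 36.2% higher. Of 11 histone variant genes outside the clusters, most of which are made independently of replication, 7 were lower and 2 higher in MΔGΔT than in MEF (median -0.34). H2afx, whose product marks DNA breaks, fell by 0.75 (adjusted p = 1.76e-11), and H1f0, a linker histone of resting cells, fell by 0.39 (adjusted p = 1.97e-10). Cenpa, the H3 variant of centromeres, rose by 1.04 in MΔGΔT (adjusted p = 5.41e-14) and by 1.46 in MGT (adjusted p = 4.99e-19). It stood at 12.1 to 16.8 CPM in MEF, 36.6 to 44.4 in MGT and 27.6 to 32.1 in MΔGΔT, with no overlap. H3f3b, an H3.3 gene, fell by 0.34 in each (adjusted p = 2.9e-09 in MGT and 2.48e-09 in MΔGΔT).

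Among 13 genes of histone gene transcription, 6 were lower, 2 higher and 5 not called in MΔGΔT against MEF (median -0.09). For this and the next 2 lists, the shares of all features were 36.1% lower and 36.2% higher. Npat did not pass the test (0.00 ± 0.0492, adjusted p = 0.986), at 55.6 to 62.6 CPM in MEF and 56.1 to 64.3 in MΔGΔT. Casp8ap2 (FLASH), its partner at histone genes, fell by 0.52 (adjusted p = 1.04e-09), and Ccne1, a cyclin that drives Npat, fell by 0.78 (adjusted p = 1.33e-09). Among 18 genes of histone 3' end formation and decay, 8 were lower, 2 higher and 8 not called (median -0.15). The stem-loop binding protein gene Slbp fell by 0.40 ± 0.0863 (adjusted p = 9.77e-05), from 15.5 to 21.3 CPM in MEF to 13.3 to 15.7 in MΔGΔT, and Eri1, a nuclease that trims the stem-loop end, fell by 0.58 (adjusted p = 1.69e-10). Of 22 histone chaperone genes, 13 were lower and 5 higher (median -0.20). The replication-coupled chaperone genes Chaf1b and Asf1b fell by 1.09 and 1.08 (adjusted p = 1.41e-10 and 1.19e-08). Anp32e, which removes H2A.Z, rose by 0.59 (adjusted p = 4.3e-14).

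Against MEF, 36.1% of all features were lower and 36.2% higher in MΔGΔT, and 30.9% were higher and 30.3% lower in MGT. Of 35 S-phase genes, 34 were lower and 1 higher in MΔGΔT than in MEF (median -0.88), and 8 were higher and 7 lower in MGT (median -0.01). Their summed level was 940 to 967 CPM in MEF, 942 to 979 in MGT and 483 to 542 in MΔGΔT. Pcna, the replication clamp, fell by 1.31 (adjusted p = 3.49e-22), and it also fell by 0.70 in MGT (adjusted p = 1.29e-14). All 24 mitosis genes were lower in MΔGΔT (median -0.87), and 21 were higher in MGT (median 0.31). Their sums were 658 to 706, 819 to 873 and 317 to 387 CPM. Of 14 cell cycle brakes, 7 were higher and 6 lower in MΔGΔT, led by the CDK inhibitor gene Cdkn1a (1.89, adjusted p = 1.17e-33), which stood at 145 to 155 CPM in MEF, 305 to 347 in MGT and 535 to 585 in MΔGΔT. The part of the cell cycle in the histone levels was not tested.

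**Figure D5:**
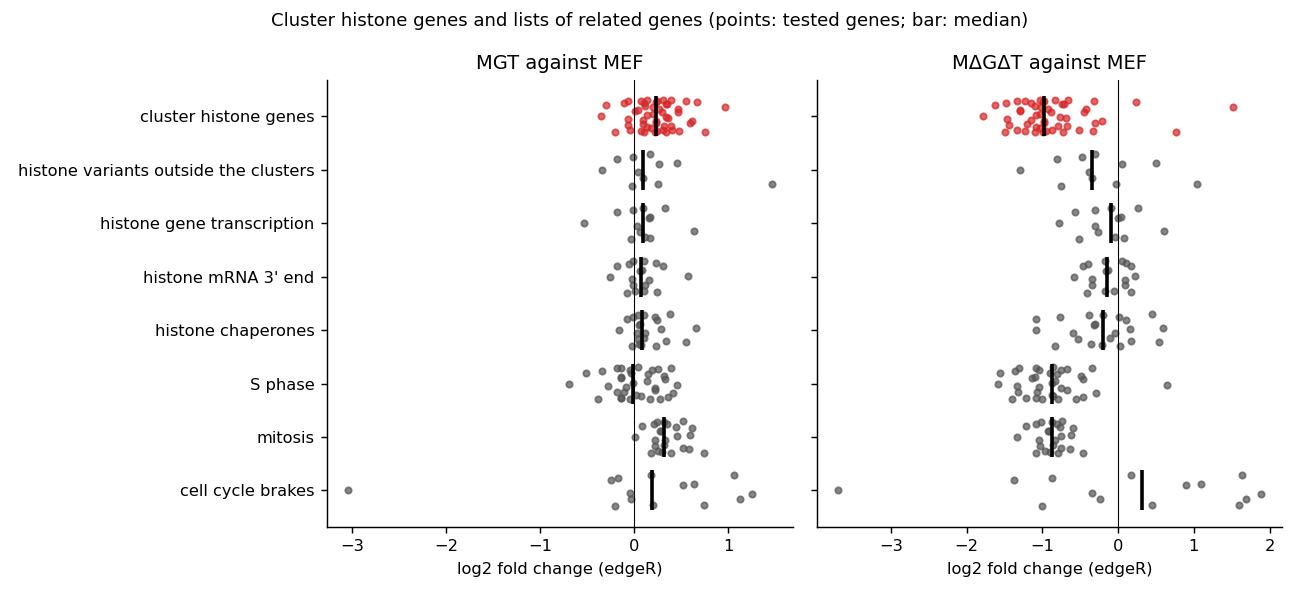
Log2 fold change (edgeR, horizontal axis) of the tested cluster histone genes (red) and of the tested genes of 7 related lists (grey), in MGT and in MΔGΔT against the same 5 MEF libraries; each point is a gene and each bar a median. The histone medians are 0.23 and -0.98, those of the S-phase list -0.01 and -0.88, and those of the mitosis list 0.31 and -0.87.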

How the data were processed

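Directional libraries were prepared from total RNA after removal of rRNA, per the labels' protocols, and mapped to mm10, per the submitters' processing notes. Which mapper and counter were run, and whether strand was used, is not given in the sources used here. The deposited counts, whole numbers per gene, were used as the authors made them. The deposited RPKM, per the file headers, served for levels per length and as an alternative. The 30 deposited normalized and transformed columns were not used.

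Counts of all 15 libraries were fitted in edgeR 4.0.16 (R 4.3.3) after filterByExpr by group and TMM, with group as the only term, and tested over 13328 features by the quasi-likelihood test with Benjamini-Hochberg adjustment at 0.05. The steps were tested on simulated data. DESeq2 1.42.0 and limma 3.58.1 served as alternatives. The names of 21 features read as dates, and these held 0.258% of the counts. These were kept in library sizes and tests. Coordinates and transcripts are those of GENCODE M21 (GRCm38).

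Named were all linker genes, the 3 genes of each other class with the highest RPKM, the 4 largest called rises and falls without overlap in each comparison, called genes against the main direction, and up to 4 of each list by adjusted p. Hist1h2ab, Hist1h2ag, Hist1h2ba, Hist1h2be, Hist1h2bf, Hist1h2bh, Hist1h4a, Hist4h4, H3f3b, Npat, Chaf1b, Asf1b, Zfp184 and Hfe were chosen after their values were seen. The members and lists were chosen with earlier results of these data known. The markers of fibroblasts, macrophages and heart muscle are such lists.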

Additional observations from a re-analysis of the deposited data

Results flagged for a closer look

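In 8 of 96 groups of 5 libraries tested, the highest or lowest library lay far from the other 4 by Dixon's criterion at the 95% level, which chance alone does in about 1 group in 20. MEF replicate 1 gave 5 of these, all low and not independent of each other. It held 14.2 CPM of Hist1h1a, 162 CPM of Hist1h1c, and summed levels of 677 CPM over all cluster histone genes, 299 CPM over H1 and 54 CPM over H2A. Hist1h2bg stood at 13.5 CPM in MGT replicate 1, above the other MGT libraries. Hist1h3e stood at 35.2 CPM in MGT replicate 5, above the others. The summed H4 level was 109 CPM in MΔGΔT replicate 4, below the others. No cause was tested.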

How the results depend on the processing

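The count of genes lower in MGT than in MEF (2) depended on the setting: it was 0 with library totals, with either RPKM fit and with only the 2 groups fitted (2 at an unadjusted p under 0.05 in the last, 1 in each of the others), and 0 to 4 when single replicates were left out, with 4 without MEF replicate 1. The count higher in MGT (18) was 10 with log2(RPKM + 0.1) and 13 to 20 with single replicates left out. Genes higher in MΔGΔT than in MEF (3) were 1 with either RPKM fit, and those higher than in MGT (2) were 0 with library totals (1 at an unadjusted p under 0.05) and with either RPKM fit (0 likewise). The counts lower in MΔGΔT stayed at 42 to 48 against MEF and 45 to 47 against MGT when single replicates were left out. With log2(RPKM + 0.1) and log2(RPKM + 1), Hist1h2bc was at -0.18 and -0.18 in MΔGΔT against MEF and at -0.39 and -0.39 against MGT, and Hist2h3c2 at -0.55 and -0.51 and at -0.93 and -0.87. The cause was not tested. The log2 ratio of the summed levels moved from -0.66 to -1.08 in MΔGΔT against MEF and from -0.74 to -1.25 against MGT when RPKM was summed. All features shifted by -0.23 and -0.21 against MEF and by -0.25 and -0.22 against MGT on these scales. The numbers 1 to 5 did not pair the libraries: correlations of same-numbered libraries ran from -0.09 to 0.07, and 3 of 15 libraries correlated best with their own number. With a replicate block, the counts in MGT against MEF were 17 higher and 2 lower. Depth limits genes such as Hist1h3h, with a mean count of 10.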
